A study of Mus musculus with 8 samples.

Results

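The Sonic hedgehog pathway was examined through 8 genes, comprising the ligand gene Shh, the receptor genes Ptch1 and Smo, the effector genes Gli1, Gli2 and Gli3, and the regulator genes Hhip and Sufu. All 8 were found among the 18770 genes of the deposited table. All 8 were also among the 15964 genes tested, which reached 3 normalized counts in 4 or more of the 8 libraries. Messenger RNA had been sequenced from dorsal skin of wildtype C57BL/6 mice (C57BL/6J in the study's methods), whose age was given as 7 to 8 weeks, on day 4 after depilation. The AP group (n = 4) received 20 µl of alpinetin, a plant flavonoid, at 3 mg/ml in 65% ethanol on the skin, and the VC group (n = 4) received 20 µl of 65% ethanol alone. Skin of both groups had been depilated, which sets resting follicles into growth. RNA came from the dermis and the follicles in it, since keratinocytes of the epidermis between follicles had first been taken off. The comparison asks how transcripts of the pathway differed between AP and VC on day 4, around the entry into anagen, the growth phase of the hair follicle. By the study's histology on that day, all follicles of AP mice but only a minority of those of VC mice had entered anagen. By that histology the groups differed in hair cycle stage, but the stage of the skin behind each sequenced library is not given. The part of stage in the hedgehog values was not tested.

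Hedgehog signalling begins when the secreted ligand binds Patched on a receiving cell. Patched then stops holding back Smoothened at the primary cilium, and the Gli transcription factors are released from Sufu and act as activators. In the hair follicle the ligand is made by epithelial cells of the germ and matrix, both epithelium and dermal papilla respond, and the pathway is required for the follicle to grow down in anagen.

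Reads counted on genes ranged from 6454563 to 7264151 per library in the VC group and from 8507783 to 11190113 in the AP group. Mitochondrially encoded genes took 54.3%, 44.9%, 42.1% and 52.3% of these reads across VC.1 to VC.4, against 11.1%, 7.85%, 5.32% and 10.3% across AP.1 to AP.4. The groups did not overlap in this share (p = 0.0286 by a two-sided exact permutation test, and no smaller p can be reached with 4 libraries per group). Without those genes, 3080758 to 3762217 reads were left per VC library and 7561598 to 10594787 per AP library, so that the hedgehog genes were read at lower depth in VC. The fewest reads behind any value of the 8 genes were 21, for Hhip in VC.4. Library numbers are those of the table and differ from the numbers in the sample titles, so no library was tied to 1 mouse, and p-values measure the spread between these libraries.

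Shh, the ligand of the pathway in skin (ENSMUSG00000002633, chr5:28456815-28467256, minus strand, mm10), had 429, 225, 522 and 76.9 normalized counts across VC.1 to VC.4, against 112, 176, 221 and 115 across AP.1 to AP.4. The VC libraries spread over a 6.79-fold range that took in every AP library, with VC.1 and VC.3 high and VC.4 below all others, and all 4 AP libraries lay below the VC median. The log2 fold change of AP over VC, computed on normalized counts plus 1, was -0.73 (SE 0.50, 95% interval from -1.84 to 0.37), and the adjusted p was 0.349 from limma. Without VC.4 this log2 fold change was -1.30 (adjusted p = 0.0439, limma), and without VC.3 it was -0.38. Over all alternatives its adjusted p ranged from 0.0439 to 0.847. An antisense gene, 9530036O11Rik, shares 446 of the 2847 exon bases of Shh and had 78.2, 41.4, 90.1 and 5.63 normalized counts across VC.1 to VC.4, against 24.7, 28.0, 68.3 and 27.9 across AP.1 to AP.4. Whether reads were counted by strand is not given in the sources used here, so reads of Shh and of this gene cannot be told apart over the shared bases.

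Ptch1, the main Patched receptor and a target gene of the pathway (ENSMUSG00000021466, chr13:63508328-63573598, minus strand), had 1529.8, 939.9, 837 and 484 normalized counts across VC.1 to VC.4, against 749, 579, 1164 and 677 across AP.1 to AP.4. VC.1 was high and VC.4 low, and the AP values lay within the VC range. Its log2 fold change was -0.19 (SE 0.32, 95% interval from -0.88 to 0.50, adjusted p = 0.716 from limma), and 0.08 without VC.1. Smo, which encodes the signal transducer Smoothened (ENSMUSG00000001761, chr6:29735503-29761365, plus strand), had 537, 582, 649 and 499 normalized counts across VC.1 to VC.4, against 570.1, 718, 796 and 668 across AP.1 to AP.4. Here 3 AP libraries were above every VC library, and AP.1 lay inside the VC range. The log2 fold change of Smo was 0.28 (SE 0.16, 95% interval from -0.06 to 0.62, adjusted p = 0.254 from limma).

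Gli1, an activator whose own transcription follows pathway activity (ENSMUSG00000025407, chr10:127329882-127341974, minus strand), had 538, 398, 741 and 289 normalized counts across VC.1 to VC.4, against 356, 273, 377 and 235 across AP.1 to AP.4. All 4 AP libraries were below the VC median and AP.2 and AP.4 below every VC library, while AP.1 and AP.3 were above VC.4. The log2 fold change was -0.60 (SE 0.27), with an unadjusted p of 0.0495 and an adjusted p of 0.164 from limma. An antisense gene, Gm47200, shares 265 of the 4995 exon bases of Gli1 and had 31.9 to 116 normalized counts in the VC group and 40.4 to 56.3 in the AP group, and the same limit on strand holds. Gli2, the main activator downstream of Smoothened (ENSMUSG00000048402, chr1:118834132-119053619, minus strand), had 178, 177, 154 and 109 normalized counts across VC.1 to VC.4, against 154, 145, 205 and 139 across AP.1 to AP.4. The groups lay over each other. The log2 fold change of Gli2 was 0.07 (SE 0.22, 95% interval from -0.42 to 0.56, adjusted p = 0.865 from limma). It turned to -0.09 when VC.4 was left out and to -0.05 when AP.3 was.

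Gli3, which acts mostly as a repressor (ENSMUSG00000021318, chr13:15463235-15730026, plus strand), had 56.4, 87.2, 108 and 56.3 normalized counts across VC.1 to VC.4, against 144, 153, 156 and 94.4 across AP.1 to AP.4. AP.1 to AP.3 were close together and above every VC library, and AP.4 lay below VC.3. For Gli3 the log2 fold change was 0.85 (SE 0.29, 95% interval from 0.23 to 1.48), with an unadjusted p of 0.0119 and an adjusted p of 0.0739 from limma. Gli3 passed the threshold with DESeq2 on the recovered reads (0.82, adjusted p = 0.0407), in limma without VC.3 (1.03, adjusted p = 0.0483) and with scaling to total counts (1.71). Over all alternatives its adjusted p ranged from 0.00311 to 0.310. The highest came from removing a trend with transcript length, an alternative chosen after the data were seen, which brought the log2 fold change to 0.42.

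Hhip, a membrane protein that binds hedgehog ligands and holds signalling down, is itself a target gene of the pathway (ENSMUSG00000064325, chr8:79965851-80058006, minus strand). It had 262, 140.4, 153 and 39.4 normalized counts across VC.1 to VC.4, against 61.6, 76.6, 172 and 53.6 across AP.1 to AP.4. Its range in VC was 6.65-fold, and 3 AP libraries lay below all VC libraries but VC.4, while AP.3 was above all but VC.1. The log2 fold change was -0.58 (SE 0.53, 95% interval from -1.74 to 0.58, adjusted p = 0.486 from limma). Sufu, the cytoplasmic partner that retains Gli proteins (ENSMUSG00000025231, chr19:46396896-46488804, plus strand), had 158, 163, 165 and 128 normalized counts across VC.1 to VC.4, against 152, 239, 225 and 191 across AP.1 to AP.4. As for Smo, 3 AP libraries were above every VC library and AP.1 was within the VC range. The log2 fold change of Sufu was 0.38 (SE 0.20, 95% interval from -0.06 to 0.82, adjusted p = 0.225 from limma).

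**Figure D1:**
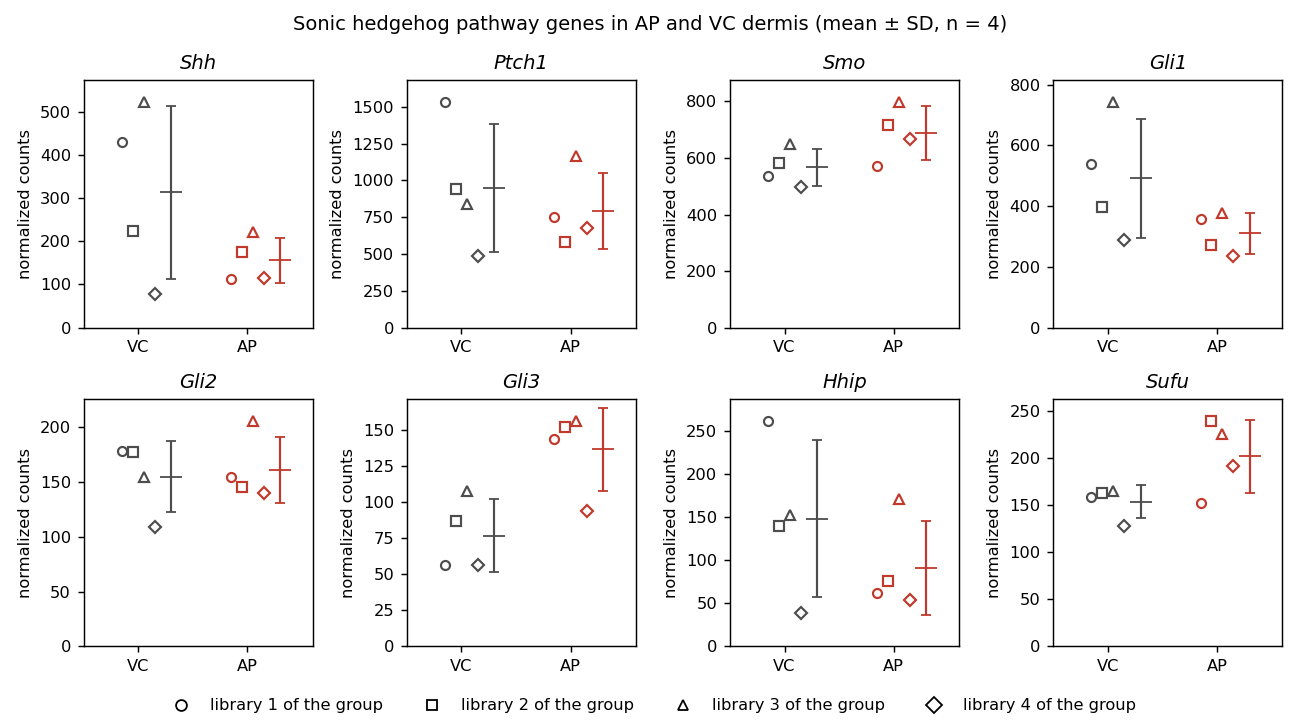
Normalized counts (y axis, from 0) of the 8 Sonic hedgehog pathway genes in the VC and AP libraries, with 1 symbol per library and the mean ± SD of each group (n = 4) beside the symbols. VC.4 (diamond) was the lowest VC library in every panel, though nearly level with VC.1 for Gli3, and the AP and VC ranges overlapped in every panel.

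In limma, 0 of the 8 genes passed an adjusted p under 0.05, against 10.3% of all genes tested (6.33% higher in AP and 4.0% lower). At an unadjusted p under 0.05 there were 2, Gli1 and Gli3, beside 30.3% of all genes tested. edgeR and limma-voom on the recovered reads also called 0 of the 8. DESeq2 called 1, Gli3, beside 1667 genes higher and 1394 lower among the 18770 of its fit, from which low values had not been filtered out. A p above the threshold does not show that AP and VC were alike. By the study's criteria (unadjusted p under 0.01 and fold change over 1.5) 0 of the 8 passed in limma, against 13.6% of all genes tested, and Gli3 passed with DESeq2. In limma Gli3 also met them without VC.3 or AP.4, Shh and Gli1 without VC.4, and Smo, Gli2, Gli3 and Sufu with scaling to total counts. The ranges of the groups overlapped for all 8, while 19.2% of all genes tested had ranges that did not overlap. The count over all genes leaned on single libraries: 1011 genes were higher and 639 lower in AP with all 8, 584 and 255 without VC.1, 385 and 155 without AP.2, 211 and 96 without AP.3, and 257 and 147 without AP.4.

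Of the 8 log2 fold changes, 4 were above 0 (Smo, Gli2, Gli3 and Sufu) and 4 below, with a median of -0.06 beside 0.06 for all genes tested, and with scaling to total counts all 8 were above 0 and Smo, Gli2, Gli3 and Sufu passed the threshold in limma. That scaling carries the mitochondrial difference into every other gene and moved the median of all genes to 0.90. Relative to that median, Shh was at -0.77, Ptch1 at -0.22, Gli1 at -0.63, Hhip at -0.62, Gli2 at 0.03, Smo at 0.25, Sufu at 0.35 and Gli3 at 0.81. With the transcript length trend removed Gli2 turned to -0.30, leaving 3 above 0, Ptch1 was at -0.70 and Hhip at -1.05, and the median of the 8 was -0.50 beside -0.009 for all genes. The median and the split leaned on single libraries, at 0.11 with 5 above 0 without VC.1, -0.28 with 3 without VC.4 and -0.22 with 3 without AP.3, and the median was nearer 0 without VC.2 or AP.4 and 0.027 without AP.2.

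Several of the 8 genes varied together between libraries. VC.4 was the lowest VC library for all 8, though for Gli3 it was nearly level with VC.1 (30 and 31 reads). AP.3 was the highest AP library for 7 of 8, the exception being Sufu. Across the 8 libraries, Shh moved with Hhip (Pearson's r = 0.90, Spearman's rho = 0.86) and Gli1 (r = 0.87, rho = 0.81) on the log2 scale. With VC.3 and VC.4, the libraries farthest from the Shh median, left out, r was 0.96 and 0.81. Ptch1 moved with Hhip (r = 0.92, rho = 0.90, r = 0.80 without VC.1 and VC.4) and Gli2 (r = 0.87, rho = 0.93, r = 0.93 without them). Smo moved with Sufu (r = 0.93, rho = 0.95, r = 0.86 without VC.4 and AP.3). Shh and Gli3 had an r of -0.01, and of 0.53 once the mean of each group had been subtracted. These values describe 28 pairs of genes that share libraries and depth, and no test was made of them.

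The genes most like Shh were sought among 11256 genes with a mean of at least 50 normalized counts, after the mean of each group had been subtracted from the log2 values. They were Pmel, Bmp4, Nhs, Sox9 and Atrn, each with an r of 0.98 over the 8 libraries. Being the highest of 11256 over only 8 values, they were picked for a high r, and no test was made of it. Pmel, a melanosome gene, had 1292, 944, 1420.1 and 366 normalized counts across VC.1 to VC.4, against 265, 388, 519.7 and 278 across AP.1 to AP.4, so that VC.3 was the highest and VC.4 the lowest VC library, as for Shh. Bmp4, a growth factor made in the dermal papilla, had 349, 249.7, 365 and 152 normalized counts across VC.1 to VC.4, against 139, 147, 158 and 124 across AP.1 to AP.4, with the same libraries highest and lowest in VC. Among the members, Hhip stood at rank 147 and Gli1 at rank 283 in likeness to Shh. The genes most like Gli1 were B4galt3, Slc12a4, Clcn2, Nxf1 and Acsl3 (r from 0.96 to 0.99). Those most like Ptch1 were Kifc1, Rbmx, Prr11, Pcnt and Egfr (r from 0.96 to 0.99), of which Kifc1 encodes a mitotic kinesin.

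Levels were compared between genes only per kb of the longest transcript. In the VC group Smo was highest at 149.9 ± 17.1 normalized counts per kb (SD, n = 4), followed by Gli1 (121 ± 48.2), Shh (109.98 ± 70.4) and Ptch1 (91.3 ± 41.8), and neighbours among these 4 overlapped in range. Below them came Sufu at 33.9 ± 3.87, apart from both its neighbours, then Gli2 (23.3 ± 4.90), Hhip (16.4 ± 10.03) and Gli3 (9.42 ± 3.09), which overlapped in turn. In the AP group Smo, at 182 ± 25.1 normalized counts per kb, stood above Gli1 (76.5 ± 16.6) without overlap, and Ptch1 (76.3 ± 24.8), Shh (54.8 ± 18.3) and Sufu (44.6 ± 8.55) followed with overlapping neighbours. Gli2 (24.3 ± 4.54) overlapped neither Sufu nor Gli3 (16.8 ± 3.53), and Hhip was lowest at 10.02 ± 6.04, overlapping Gli3. The order depends on the length used, since with the median length of each gene's transcripts Ptch1 was highest in both groups, at 568 normalized counts per kb in VC and 475 in AP.

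Activator and repressor were set against each other within each library, where scaling between libraries cancels. Gli1 over Gli3, both per kb, was 19.2, 9.18, 13.8 and 10.3 across VC.1 to VC.4, against 4.97, 3.60, 4.85 and 5.02 across AP.1 to AP.4. Every VC library was above every AP library. The mean log2 ratio differed by -1.46 (AP minus VC), and by -1.62 to -1.26 with any 1 library left out. A trend with transcript length does not cancel in this ratio. With that trend removed, the log2 fold change was -0.75 for Gli1 and 0.42 for Gli3, which lie closer together than with it. Ptch1 over Gli3 also did not overlap between groups (6.11 to 21.3 in VC and 2.98 to 5.86 in AP), 2 of the 28 pairs of members in all, beside 19.2% of single genes tested. The ratios were formed after the values were seen. For each of these 2 pairs the exact permutation p was 0.0286, the smallest that can be reached, and adjusted over the 28 pairs it was 0.200 for Gli1 over Gli3, which misses 0.05. Such a ratio describes transcripts, and the processed forms of the Gli proteins were not measured.

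Beyond the 8 genes, 5 lists of pathway genes held 69 genes, of which 64 were tested. At an adjusted p under 0.05 in limma, 5 were higher and 3 lower in AP, 12.5% beside the 10.3% of all genes, and their median log2 fold change was 0.15. In the list of co-receptors and receptors 3 of 6 genes tested rose and 0 fell, with a median log2 fold change of 0.74, and 5 rose with scaling to total counts. The 3 that rose with the deposited scaling were Cdon, Boc and Gas1, cell surface proteins that bind the ligand together with Patched and help its reception. Cdon (chr9:35421128-35507652, plus strand) had 72.8, 91.6, 60.1 and 86.3 normalized counts across VC.1 to VC.4, against 234, 245, 188 and 144 across AP.1 to AP.4. Every AP library was above every VC library, and limma gave a log2 fold change of 1.36 (SE 0.24) at an adjusted p of 0.0108. Cdon passed under all 22 alternatives, with an adjusted p of at most 0.0443.

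Boc (chr16:44485049-44558897, minus strand) had 70.9, 132, 153 and 78.8 normalized counts across VC.1 to VC.4, against 269.8, 243, 206 and 191 across AP.1 to AP.4. VC.1 and VC.4 were low, and the groups did not overlap, and limma gave a log2 fold change of 1.12 (SE 0.27) at an adjusted p of 0.0282. Gas1 (chr13:60174405-60177365, minus strand) had 502, 751, 464 and 954 normalized counts across VC.1 to VC.4, against 1529.6, 1043, 1052 and 1317 across AP.1 to AP.4. AP.2 was only a little above VC.4, the groups did not overlap, and the log2 fold change was 0.93 (SE 0.24, adjusted p = 0.0334 from limma). Boc missed the threshold without VC.1, VC.4, AP.2, AP.3 or AP.4, with log2 fold changes from 0.95 to 1.31 and adjusted p from 0.0247 to 0.0761 in limma over the 8 libraries left out in turn. Gas1 missed it without VC.1, VC.3 or any 1 of the AP libraries, with log2 fold changes from 0.78 to 1.12 and adjusted p from 0.0216 to 0.0884 in limma. Both also missed it without limma's intensity trend. Gas1 shares 589 of 2961 exon bases with Gm48488 on the other strand, which had 76.5 to 167 normalized counts in VC and 308 to 416 in AP, so that reads of the shared bases cannot be told apart. The list held 1 gene that passed without VC.1, AP.2, AP.3 or AP.4, and 2 without VC.3, VC.4 or AP.1.

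**Figure D2:**
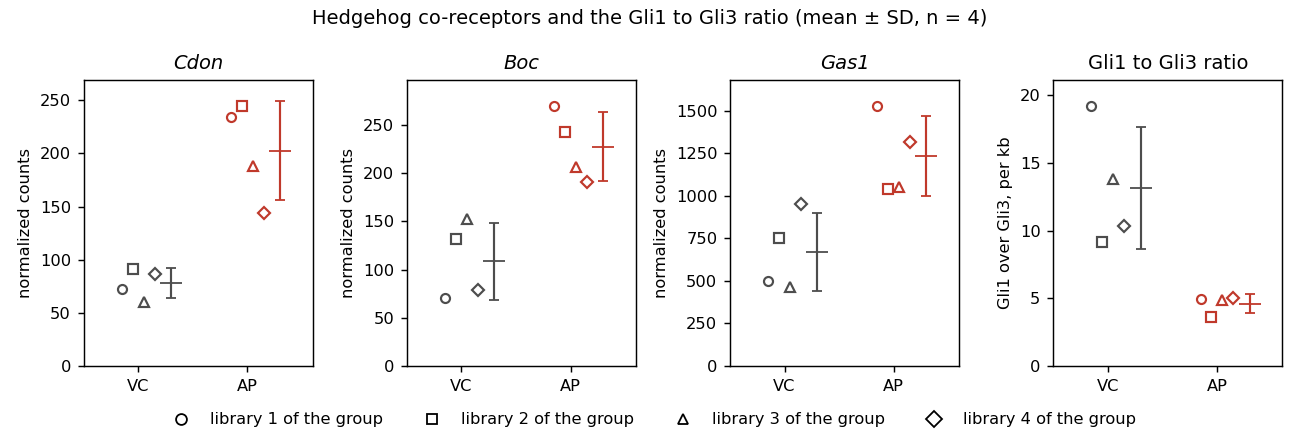
Normalized counts (y axis, from 0) of the co-receptor genes Cdon, Boc and Gas1, and the ratio of Gli1 to Gli3 per kb, with 1 symbol per library and the mean ± SD of each group (n = 4). The AP libraries lay above the VC libraries for Cdon, Boc and Gas1 and below them for the ratio.

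Among genes for ligands and their release, 0 of 6 tested passed in limma (beside 10.3% of all genes tested), as in edgeR and limma-voom. The DESeq2 fit held 7 and called 0. In limma 1 had an unadjusted p under 0.05 (beside 30.3% of all genes), and 2 rose with scaling to total counts. The median log2 fold change in limma was 0.40, or -0.14 without VC.1. Dhh, the ligand made by Schwann cells, had 1.82, 17.7, 23.2 and 35.6 normalized counts across VC.1 to VC.4, against 24.7, 38.3, 19.4 and 16.5 across AP.1 to AP.4. VC.1 held 1 read, and the log2 fold change of 0.73 (SE 0.72) was -0.06 without it. Scube1, of a family of secreted proteins that help release the ligand, came to -0.48 on the log2 scale (SE 0.48, adjusted p = 0.525, limma), and with 1 library left out it ran from -0.85 without VC.4 to -0.052 without VC.3, with -0.75 without AP.3 and -0.30 without AP.2.

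In the list of signal relay and Gli processing, 2 of 21 rose and 2 fell, beside 6.33% and 4.0% of all genes, with a median log2 fold change of 0.14. With scaling to total counts 17 rose and 0 fell, where 8670 of 16137 genes rose in all, with a median of 1.003. With the transcript length trend removed the median of the list turned to -0.048, with 10 genes above 0 and 11 below. Gsk3b, a kinase that phosphorylates Gli proteins on the way to their processing, had 339 ± 47.4 normalized counts in VC and 522 ± 76.6 in AP (SD, n = 4 each), and a log2 fold change of 0.62 with an adjusted p of 0.0414 from limma. Arrb1, encoding a β-arrestin, had 301 ± 43.0 and 486 ± 109.9 normalized counts (0.68, adjusted p = 0.0438 from limma). The 2 that fell were Spop, an adaptor of a ubiquitin ligase that targets Gli proteins, and Arrb2, encoding another β-arrestin. Spop had 2089 ± 646 normalized counts in VC and 1214 ± 91.2 in AP, with a log2 fold change of -0.73 (adjusted p = 0.0496 from limma), and was at 0.14 with scaling to total counts. Arrb2 had 282 ± 88.6 and 149.8 ± 22.9 normalized counts, with a log2 fold change of -0.87 (adjusted p = 0.0380 from limma).

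All 4 calls in that list were lost after removal of the transcript length trend, where the log2 fold change was 0.18 for Gsk3b, 0.29 for Arrb1, -0.75 for Spop and -0.73 for Arrb2. All 4 were also lost without limma's intensity trend, Gsk3b with limma-voom, Arrb1 with upper-quartile scaling, and Arrb2 with scaling to total counts (-0.002). Spop passed under 7 of 22 alternatives, and was lost too with TMM or total-count scaling, without mitochondrial genes, at equal depth, with no filter and at a pseudocount of 0.5. The calls depended on single libraries as well. The call on Arrb1 was lost without any 1 of the 8 (adjusted p from 0.0545 to 0.117 in limma), and that on Spop without any but VC.3 (0.0223 to 0.134). Gsk3b kept its call in limma only without VC.3 or AP.1 (0.0229 to 0.133 over the 8), and Arrb2 lost it without VC.3, VC.4, AP.2, AP.3 or AP.4 (0.0314 to 0.114). Of 18 genes of the primary cilium, where the signal is transduced, 0 passed in limma (beside 10.3% of all genes tested), edgeR, DESeq2 or limma-voom. In limma 3 had an unadjusted p under 0.05 (beside 30.3% of all genes). The median log2 fold change was -0.07, or 0.79 with scaling to total counts, where 8 rose. It was -0.16 without VC.4, -0.14 without AP.3, -0.0095 without AP.4 and -0.28 with the transcript length trend removed. The cilium genes with the largest differences were Ift57 (-0.72, SE 0.29, adjusted p = 0.117 from limma) and Mks1 (-0.70, SE 0.41, adjusted p = 0.271 from limma).

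Among 13 Gli target genes tested, 0 rose and 1 fell in limma, beside 6.33% and 4.0% of all genes tested. An unadjusted p under 0.05 was reached by 6 (beside 30.3% of all genes). edgeR and limma-voom also called 0 higher and 1 lower. The DESeq2 fit, which held 15 genes of this list because low values were not filtered out before it, called 2 higher and 2 lower. In limma the median log2 fold change was 0.15, and with scaling to total counts 8 rose, 0 fell and the median was 1.005. It was 0.34 without VC.3, 0.24 without AP.1 and 0.0096 with the transcript length trend removed. In limma 2 rose without AP.1 and 1 without VC.3. The gene that fell was Snai1, a transcription factor of epithelial-mesenchymal transition, which had 233, 130.04, 186 and 294 normalized counts across VC.1 to VC.4, against 107, 121, 69.8 and 67.2 across AP.1 to AP.4. The groups did not overlap, though VC.2 was close to AP.2, and the log2 fold change was -1.18 (SE 0.30, adjusted p = 0.0321 from limma). The call on Snai1 was lost without VC.1, VC.4, AP.3 or AP.4 (adjusted p from 0.0220 to 0.100 in limma over the 8 libraries left out in turn). Foxe1, a forkhead transcription factor, had 31.4 ± 7.56 normalized counts in VC and 86.0 ± 49.0 in AP, with AP.2 and AP.3 high, and a log2 fold change of 1.25 (adjusted p = 0.0881 from limma, or 0.0275 without AP.1).

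Across 15962 genes the log2 fold change rose with the length of the longest transcript (Spearman's rho = 0.24, across genes, and genes are no independent replicates), and more steeply over the 11255 genes with a mean of at least 50 (rho = 0.40). Once the trend was taken out, Cdon, Boc and Gas1 had log2 fold changes of 0.96, 0.94 and 0.92 and adjusted p of 0.0443, 0.0490 and 0.0367 from limma. Snai1 was then at -0.996 with an adjusted p of 0.0594 in limma, and it also missed the threshold without limma's intensity trend and with scaling to total counts (-0.32).

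**Figure D3:**
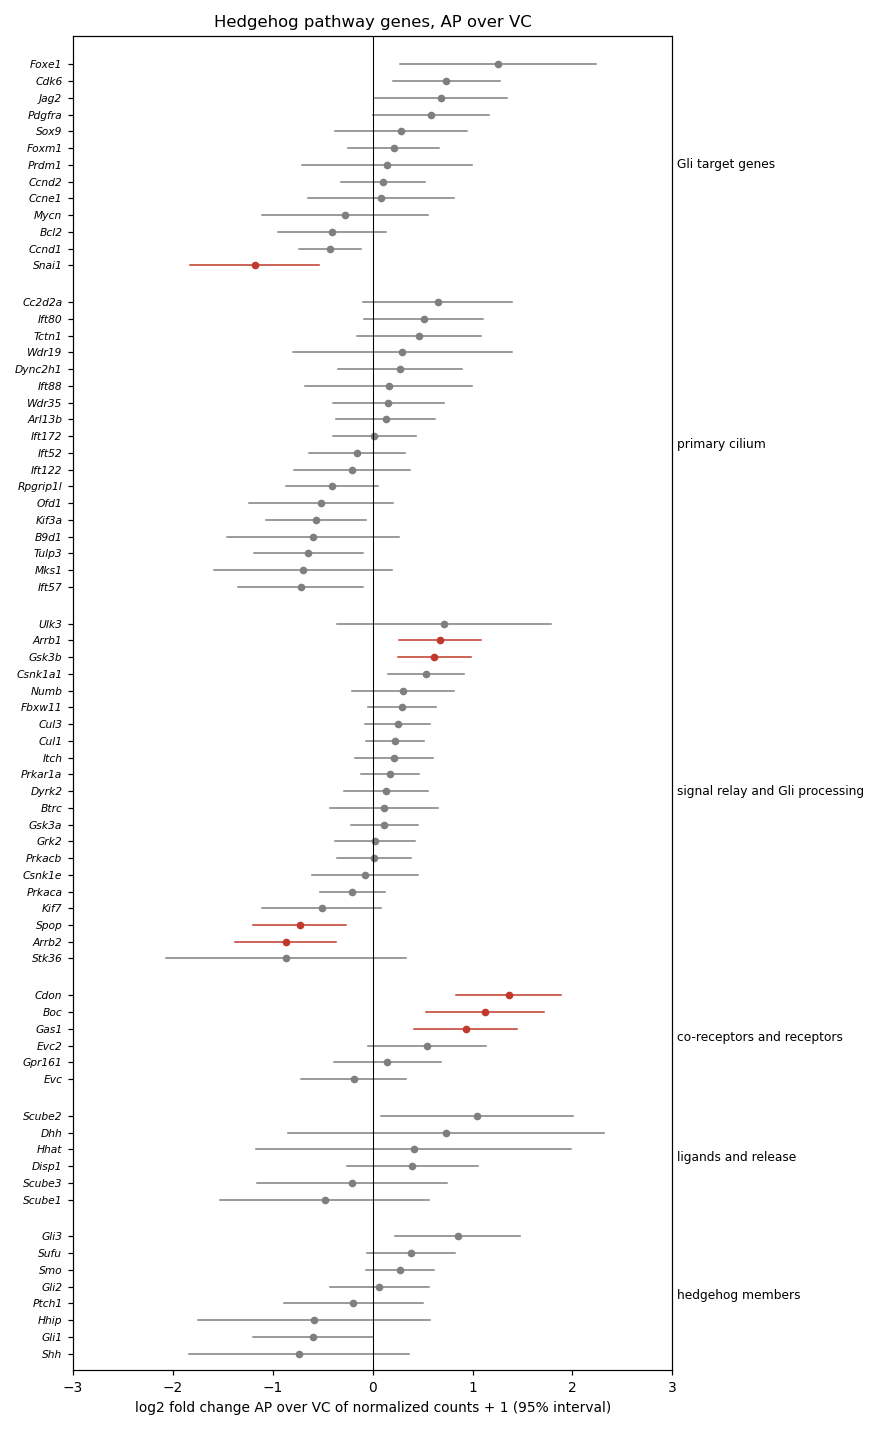
Log2 fold change of AP over VC (x axis, on normalized counts plus 1) with its 95% interval for the 8 genes and for the tested genes of the 5 pathway lists, 4 libraries per group. Red marks an adjusted p under 0.05 in limma: Cdon, Boc, Gas1, Arrb1 and Gsk3b to the right of 0, and Spop, Arrb2 and Snai1 to the left, where with scaling to total counts none of the 3 passed (Spop at 0.14, Arrb2 at -0.002 and Snai1 at -0.32).

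The tissue was checked against markers of the cells it could hold. Fibroblast genes were high in all libraries (Col1a1 from 21330.1 to 84986 normalized counts), and the follicle genes Krt15 and Krt71 were present in every library. Genes of interfollicular epidermis, which had been taken off before RNA was made, were present too and differed between the groups. Over all genes tested, 6.33% rose and 4.0% fell in limma. Of 16 suprabasal genes 12 rose and 0 fell, with a median log2 fold change of 2.90, and their summed level was 7344, 14651, 10250.5 and 6915 normalized counts across VC.1 to VC.4, against 47364, 44750.1, 131755 and 181623 across AP.1 to AP.4. Every AP library was above every VC library, AP.3 and AP.4 most of all, and Krt10 was the most abundant gene. Of 11 basal keratinocyte genes 6 rose and 0 fell (median 1.07, Krt14 the most abundant), with sums of 26356, 81778, 50774 and 25667 normalized counts across VC.1 to VC.4, against 53998, 56099.9, 101155 and 144944 across AP.1 to AP.4. The basal groups overlapped, and only 1 basal gene passed without VC.1, VC.4, AP.3 or AP.4 and 2 without AP.2.

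Cells that receive the signal were followed by dermal papilla genes. Of these, 5 of 16 fell (Sox2, Alx4, Rspo3, Crabp1 and Wif1) and 0 rose, beside 4.0% and 6.33% of all genes tested. Their median log2 fold change was -0.92, or -0.05 with scaling to total counts. Their summed level was 3695, 4229, 5881 and 4948 normalized counts across VC.1 to VC.4, against 2092, 2088, 3219 and 1767 across AP.1 to AP.4, without overlap, and Vcan was the most abundant. The number that fell was 3 without VC.2 or AP.3, 2 without AP.2 and 1 without AP.4. It was 1 with scaling to total counts or without limma's intensity trend, and 8 with DESeq2. Sox2 had 109, 90.1, 124 and 56.3 normalized counts across VC.1 to VC.4, against 21.8, 18.3, 42.4 and 26.5 across AP.1 to AP.4 (log2 fold change -1.78, adjusted p = 0.0174 from limma). In bulk tissue, fewer cells of a type and less RNA per cell cannot be told apart. Of 8 melanocyte genes, whose Pmel was among the genes most like Shh, 4 fell (Tyr, Pmel, Mlana and Mitf) and 0 rose, beside 4.0% and 6.33% of all genes tested. Their median was -0.78, or 0.09 with scaling to total counts. Their sums were 4511, 3513, 4036 and 1613 normalized counts across VC.1 to VC.4, against 1464, 1695, 2199 and 1269 across AP.1 to AP.4, with Dct the most abundant. The number of melanocyte genes that fell was 1 with any 1 library but VC.4 left out, and 5 without VC.4. It was also 1 without limma's intensity trend and with scaling to total counts, where 1 rose.

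The list of hair germ and matrix genes, of which 15 were tested, also holds keratin genes of differentiated follicle layers, such as Krt71. Neither its counts nor its sums therefore measure the cells that make the ligand. In limma 0 of the 15 passed (beside 10.3% of all genes tested). An unadjusted p under 0.05 was reached by 4, all higher in AP (beside 30.3% of all genes in either direction). The median log2 fold change was 0.41, or 0.11 without VC.4, 0.21 without AP.3 and 0.70 without AP.1. Of these genes edgeR called 1, DESeq2 2 and limma-voom 0. Without AP.1, limma called 2 of them higher, and without VC.2 it called 1, while with scaling to total counts 8 rose. Their summed level was 8497, 6224, 8621 and 2383 normalized counts across VC.1 to VC.4, against 4414, 14620.5, 16824 and 6878 across AP.1 to AP.4, with Krt71 the most abundant. VC.4 was the lowest VC library and AP.3 the highest AP library here, as for Shh. Foxn1, a transcription factor of the hair matrix, had 50.9, 13.3, 54.6 and 5.63 normalized counts across VC.1 to VC.4, against 35.5, 77.6, 89.7 and 85.8 across AP.1 to AP.4, and 3 AP libraries were above every VC library (log2 fold change 1.59, SE 0.65, adjusted p = 0.126 from limma). Msx2, a matrix transcription factor too, had 467, 186, 354 and 86.3 normalized counts across VC.1 to VC.4, against 92.1, 192, 223 and 113 across AP.1 to AP.4, the same order of libraries within each group as Shh except that VC.1 was above VC.3. Of the markers of these 5 lists found in the deposited table, none was at 0 in every library of a group. Krt85, a hair germ and matrix marker, was not found there. These marker lists and the mitochondrial share moved with the groups or with single libraries, and their part in the hedgehog values was not tested.

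Promoter sequence is shown for Ptch1, Hhip and Gli2, the members whose values moved together most closely between libraries (group-centred r from 0.92 to 0.94). RefSeq sequence (GRCm38.p6) was found for 6 of the 8 genes, all but Shh and Gli1, and the 250 bases before each start were used, written 5′ to 3′ on the strand of the gene. The Gli binding motif GACCACCCA and the shorter CCACCCA and ACCACCC, which both lie within it, were searched on both strands. Of 32851 such promoters, 0.225% held GACCACCCA, 8.11% CCACCCA and 3.92% ACCACCC.
Ptch1, chr13:63565736-63565985, minus strand: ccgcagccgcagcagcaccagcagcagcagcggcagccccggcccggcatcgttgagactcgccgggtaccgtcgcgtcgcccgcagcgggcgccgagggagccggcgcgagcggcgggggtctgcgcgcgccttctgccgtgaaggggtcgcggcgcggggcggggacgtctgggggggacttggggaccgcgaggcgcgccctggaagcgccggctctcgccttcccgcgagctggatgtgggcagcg
Hhip, chr8:80058009-80058258, minus strand: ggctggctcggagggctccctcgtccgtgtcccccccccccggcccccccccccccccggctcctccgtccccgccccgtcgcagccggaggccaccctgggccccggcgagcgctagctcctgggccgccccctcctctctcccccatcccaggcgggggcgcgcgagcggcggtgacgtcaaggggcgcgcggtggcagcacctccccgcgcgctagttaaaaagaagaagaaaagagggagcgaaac
Gli2, chr1:119053620-119053869, minus strand: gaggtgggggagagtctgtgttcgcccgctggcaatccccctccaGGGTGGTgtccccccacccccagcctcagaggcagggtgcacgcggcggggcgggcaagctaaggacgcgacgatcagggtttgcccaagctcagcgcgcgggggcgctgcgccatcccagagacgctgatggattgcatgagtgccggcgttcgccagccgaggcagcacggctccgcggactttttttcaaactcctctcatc
Capitals mark ACCACCC read on the opposite strand, found only in the Gli2 window among the 6, and the other motifs were in none of the 6. The Ptch1 window lies inside the annotated gene and outside its exons, and the Hhip and Gli2 windows lie outside their genes. The windows were rich in G and C, at 78.4%, 76% and 67.2% for Ptch1, Hhip and Gli2, beside a median of 52.4% over all promoters. A window without a motif says only that these letters are not in these bases.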

How the data were processed

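RNA-seq of 4 AP and 4 VC samples was used. Reads had been aligned by the authors with STAR (mm10) and then counted per gene (featureCounts in the methods, HTSeq in the submitters' processing notes), and versions and strand setting are not given in the sources used here. The deposited signal values are normalized counts, which the authors made with DESeq2 by dividing counts by 1 size factor per library. The deposited table also holds the authors' own comparison (log2 fold change and its error, a Wald statistic, which is a score, and p-values), and these columns were not used. From the normalized counts, whole reads were recovered for 150160 of 150160 values (100%, tolerance 0.01 reads), on which edgeR called 1003 genes higher and 712 lower.

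Genes that reached 3 normalized counts in 4 or more of 8 libraries were tested with limma 3.58.1 (intensity trend, R 4.3.3) on log2(value + 1), with Benjamini-Hochberg adjustment over 15964 genes. Single values were tested by exact permutation over 70 assignments (Python 3.11.15, scipy 1.17.1). Coordinates and lengths are from GENCODE M21, which held 18766 of 18770 identifiers. Alternatives were edgeR 4.0.16, DESeq2 1.42.0 and limma-voom on recovered reads, TMM, upper-quartile and total-count scaling, mitochondrial genes left out, down-sampling to 3080758 non-mitochondrial reads in each library, no filter or a minimum of 10, pseudocounts of 0.5 and 5, no intensity trend, each library left out in turn and, chosen after seeing the data, a loess trend (span 0.3, fitted on genes with a mean of at least 50) on transcript length removed. Named genes were the members, each pathway list's genes past the threshold and its 2 largest changes at a mean of at least 20, the leading markers, and the 5 genes most like Shh, Gli1 and Ptch1. Some genes are not reported here and are left out of the list counts and medians. Members and lists were chosen with earlier results of these data known. The procedure was tested on simulated data.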

Additional observations from a re-analysis of the deposited data

Results flagged for a closer look

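In 2 of 16 groups of 4 libraries (8 genes in AP and VC) 1 library lay far from the others, judged by its gap to the nearest library divided by the range of the group on the log2 scale, and passed Dixon's 95% critical value for 4 samples. For Gli3 in AP this was AP.4, the lowest, with a value of 0.840. For Sufu in VC this was VC.4, the lowest, with a value of 0.834. On the normalized counts themselves both fall short of that value. Chance gives about 1 in 20 groups.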

How the results depend on the processing

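Scaling to total counts, which counts the mitochondrial reads into each library's size, moved the median over all genes from 0.06 to 0.90 (log2) and turned Shh to 0.13, Ptch1 to 0.68, Gli1 to 0.27, Hhip to 0.28, Scube1 to 0.37, Spop to 0.14, Ift57 to 0.14 and Mks1 to 0.14. Smo (1.15), Gli2 (0.93), Gli3 (1.71) and Sufu (1.25) then passed the threshold, and 8670 genes were called higher and 65 lower (6936 and 33 by the study's criteria). DESeq2 called 1667 higher and 1394 lower, with Gli3 at 0.82, and limma without its trend called 376 and 216. The split moved from 1011 higher and 639 lower to 890 and 892 with upper-quartile scaling and to 715 and 723 with limma-voom. With the transcript length trend removed, chosen after seeing the data, 580 were higher and 531 lower and Gli2 turned to -0.30, and the cause was not tested. Leaving out 1 library at a time gave 211 to 1061 genes higher and 96 to 812 lower (823 to 1397 and 506 to 1000 by the study's criteria). Over these fits the log2 fold change ran from -1.30 to -0.38 for Shh, -0.48 to 0.077 for Ptch1, 0.20 to 0.36 for Smo, -0.83 to -0.38 for Gli1, -0.091 to 0.14 for Gli2, 0.72 to 1.03 for Gli3, -1.12 to -0.22 for Hhip, 0.29 to 0.51 for Sufu and -0.060 to 1.17 for Dhh. Gli2 was negative without VC.4 (-0.091) and AP.3 (-0.054), Ptch1 was 0.077 and Dhh -0.060 without VC.1, and Shh passed without VC.4 and Gli3 without VC.3. Fewer samples enter each of these fits. No paired analysis was possible because the numbers in the titles share none between the groups and the table's columns are not tied to mice.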

Other observations

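Markers of other cell types in the skin were summed per library beside the hedgehog values. The count of genes called in each list stands beside 6.33% higher and 4.0% lower in AP over all genes tested in limma. For skeletal muscle genes the median log2 fold change was -1.80 (1 of 10 fell, Tnnc2, and 0 rose in limma), with sums of 48256, 74491, 39572 and 36390.3 normalized counts across VC.1 to VC.4, against 72545, 9315, 5434 and 11835 across AP.1 to AP.4, so that AP.1 was among the VC libraries and the other AP libraries were below all of VC. Without AP.1, 10 of the 10 fell, and 0 passed in limma with any other library left out. Endothelial genes had a median of 1.44 (3 of 9 rose, Pecam1, Cdh5 and Flt1, and 0 fell), with sums of 1241, 1367, 2555 and 2391 normalized counts across VC.1 to VC.4, against 3943, 9098, 3168 and 3711 across AP.1 to AP.4. That number was 1 without VC.1, 5 without VC.3 and 6 without VC.4. It was 0 without limma's intensity trend, 7 with DESeq2 and 9 with scaling to total counts. Schwann cell genes had a median of -0.33, or 0.53 with scaling to total counts (2 of 9 fell, Mbp and S100b, and 0 rose), with sums of 2974, 5335, 4371 and 4519 normalized counts across VC.1 to VC.4, against 6175, 4904, 3123 and 3812 across AP.1 to AP.4, which overlapped. In limma 1 fell without VC.2, VC.4, AP.2, AP.3 or AP.4, and 1 rose without VC.3. With scaling to total counts 3 Schwann cell genes rose and 0 fell. Their median was -0.12 without VC.3 and -0.16 without VC.2 or AP.3. Smooth muscle genes had a median of 1.16 (4 of 8 rose, Acta2, Myh11, Actg2 and Lmod1, and 0 fell), with sums of 4024, 6391, 4399 and 4794 normalized counts across VC.1 to VC.4, against 8159, 6642, 2733 and 4294 across AP.1 to AP.4, which overlapped, and Des, a gene of skeletal muscle too, was the most abundant. The number that rose was 1 without VC.1, AP.2 or AP.4 and 2 without VC.2, and 1 fell without AP.1. Hair follicle stem cell genes had a median of 0.27 (2 of 12 rose, Lrig1 and Itga6, and 0 fell), with sums of 11620.2, 10689, 12458 and 15806 normalized counts across VC.1 to VC.4, against 14294, 10334, 16934 and 15102 across AP.1 to AP.4, which overlapped, and 2 rose under each alternative but total-count scaling, where 9 did. Of red blood cell genes 1 of 5 rose, Hbb-bs, and 0 rose without VC.1, AP.2 or AP.4, or without limma's intensity trend. Proliferation genes had a median of 0.06, which turned to -0.12 without VC.4, -0.092 without AP.3 and -0.053 without AP.4. Of these 17 genes 0 passed the threshold in limma, 4 had an unadjusted p under 0.05 (beside 30.3% of all genes), and edgeR called 1, DESeq2 2 and limma-voom 0. In limma 1 rose without VC.2 and 1 fell without VC.4, and with scaling to total counts 10 rose. Their part in the hedgehog values was not tested.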
